A study of Mus musculus with 21 samples.

Results

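The proteasome genes were the 49 genes of the deposited rlog table, among 15249 in all, whose names begin with Psma to Psmg followed by a number. They encode the subunits of the proteasome and its assembly factors, and the rule itself reads only the name. By role they comprised 31 constitutive subunits (14 of the 20S core and 17 of the 19S cap), the 3 catalytic subunits of the immunoproteasome (Psmb8, Psmb9 and Psmb10), the regulators PA28α and PA28β (Psme1 and Psme2), 3 other regulators, 7 assembly factors, 1 testis-type core subunit and 2 genes of other kinds that the name rule takes in (Psmc3ip and Psme2b). RNA was read by QuantSeq 3′ mRNA sequencing in CD4+ T cells sorted from the spleen of Tg4 Nr4a3-Tocky Tiger mice. Every group, the control included, carried the Tg4 transgene, a T cell receptor that recognises an MBP (myelin basic protein) peptide, the Nr4a3-Tocky Timer reporter, whose blue form matures to red, and the Tiger reporter (Il10-GFP). The control group was untreated. The 6 immunised groups received 4Y MBP peptide under the skin, without adjuvant, at a low dose of 0.8 µg or a high dose of 80 µg, and cells were taken 4 h, 12 h or 24 h later. Each of the 7 groups held 3 mice, which gave 21 libraries; age was not given, and mice of both sexes were used. The Timer gate changed with time, from Blue+Red- cells (4 h) through Blue+Red+ cells (12 h) to Blue-Red+ cells (24 h), and time and gate therefore cannot be told apart. The gate of the control cells was not given in the sources used here. The cells stand for a response through a transgenic receptor and not for that of a mixed T cell repertoire. In such bulk samples, fewer expressing cells and less RNA per cell cannot be told apart either.

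The proteasome is the protease that degrades proteins tagged with ubiquitin. Its 20S core is a barrel of alpha and beta rings whose catalytic beta subunits cut the substrate, and the 19S cap recognises ubiquitin, unfolds the substrate with a ring of ATPases and feeds it into the core. In immune cells and under interferon, Psmb8, Psmb9 and Psmb10 are built into new cores in place of the constitutive catalytic subunits Psmb5, Psmb6 and Psmb7, and PA28αβ can cap the core in place of 19S, which changes the peptides that are made, including those loaded on MHC class I.

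Promoters of catalytic subunits and of PA28α are shown first, because at 4 h the constitutive catalytic genes and PA28α were higher than control and the immunoproteasome catalytic genes lower. RefSeq promoters (GRCm38.p6) matched 41 of the 49 genes by symbol. They were searched on both strands for the antioxidant response element bound by Nrf1 and Nrf2 (ARE, TGACNNNGC), the interferon-stimulated response element (ISRE, read as GAAA, any 2 bases and GAAA) and the gamma-activated site (GAS, TTCNNNGAA). ARE letters stood in 6 of the 41, against 12.4% of all 32851 promoters in the table, ISRE letters in 5 against 3.44%, and GAS letters in 3 against 8.3%. A gene was counted when any of its promoters held a match, whereas the shares are over single promoters, so the figures are not strictly alike. Psmd9 held both ARE and ISRE letters, and no gene held both ISRE and GAS letters. A match is a description of these letters and not a measured binding site. The 4 stretches run from 160 bases before the RefSeq start to 30 bases from it on the gene's own strand. Matched letters are in capitals, and the stretches were chosen among these genes for holding a match. Psmb10 and Psme2 held none of the 3 motifs in their windows, and Psmb7 was not among the genes matched. Psmb5 (chr14:54617966-54618155, minus strand) held an ARE 47 bases before the start, Psmb6 (chr11:70525197-70525386, plus strand) an ARE 9 bases before it, Psmb8 (chr17:34198035-34198224, plus strand) a GAS site 97 bases before it, and Psme1 (chr14:55578334-55578523, plus strand) an ISRE on the opposite strand 9 bases past it.
Psmb5: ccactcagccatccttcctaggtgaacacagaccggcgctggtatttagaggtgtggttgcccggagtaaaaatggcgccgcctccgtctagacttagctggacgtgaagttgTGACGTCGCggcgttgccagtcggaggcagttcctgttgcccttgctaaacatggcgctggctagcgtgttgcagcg
Psmb6: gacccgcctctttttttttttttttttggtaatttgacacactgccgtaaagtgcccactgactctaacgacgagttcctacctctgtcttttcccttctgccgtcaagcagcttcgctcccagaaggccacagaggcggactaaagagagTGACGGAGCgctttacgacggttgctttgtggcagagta
Psmb8: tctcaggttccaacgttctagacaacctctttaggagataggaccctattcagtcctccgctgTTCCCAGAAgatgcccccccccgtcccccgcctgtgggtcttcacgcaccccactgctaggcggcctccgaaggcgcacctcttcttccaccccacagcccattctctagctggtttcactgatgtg
Psme1: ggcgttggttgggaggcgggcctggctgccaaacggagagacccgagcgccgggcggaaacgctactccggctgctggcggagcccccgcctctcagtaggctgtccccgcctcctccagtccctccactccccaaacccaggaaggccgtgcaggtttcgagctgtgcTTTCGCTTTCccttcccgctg
Psmb9 starts head to head with Tap1, the peptide transporter gene, and their RefSeq starts lie 226 bases apart. The stretch from the Psmb9 start to the Tap1 start (chr17:34187330-34187556, plus strand, no match to the 3 motifs) is shown because both genes differed between doses at 4 h.
Psmb9 to Tap1: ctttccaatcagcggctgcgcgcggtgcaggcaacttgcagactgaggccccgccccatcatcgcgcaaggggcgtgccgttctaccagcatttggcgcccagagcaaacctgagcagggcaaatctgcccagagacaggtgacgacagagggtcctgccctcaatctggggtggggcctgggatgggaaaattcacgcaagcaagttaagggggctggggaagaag
The gene spans that follow are those of GENCODE, whose 5′ ends differ from the RefSeq starts used above. Psmb9 (chr17:34181987-34187764, minus strand), Tap1 (chr17:34187553-34197225, plus strand) and Psmb8 (chr17:34197721-34201454, plus strand) follow each other, whereas Psmb10 (chr8:105935735-105938444, minus strand) lies apart. Psme1 (chr14:55578123-55581529, plus strand) and Psme2 (chr14:55587441-55591113, minus strand) are neighbours. The stretches printed for Psmb8 and Psme1 lie inside these spans. In the gene annotation for GRCm38, exons of Psmb9 overlap those of Tap1 on the opposite strand at the 5′ ends, away from the 3′ ends that this assay reads. Of the 49 genes, 15 have an exon that overlaps another gene, 12 of them antisense to it and 4 in its sense (Psmd1 in both ways). Antisense overlaps include Psmb7 (Nek6), Psmb8 (Gm20496), Psme1 (Emc9), Psmc3ip (Mlx), Psma4, Psma5, Psmc3, Psmd3, Psmd9 and Psmd13, and overlaps in sense are those of Psmd1 (Gm21972), Psmb5 (Mir686), Psme2b (9930111J21Rik1) and Psmg3 (Gm26938), whose reads are uncertain to that extent. Since the strand setting of the counting was not stated, reads of such pairs may not have been told apart.

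Library totals ran from 2352800 to 6244279 counts. The 49 genes together took 0.323 to 0.332% of the counts in the control libraries, 0.636 to 0.683% at 4 h, 0.817 to 0.933% at 12 h and 0.545 to 0.629% at 24 h, so that every immunised library lay above every control library. Within the same libraries the mitochondrial rRNA mt-Rnr2 took 4.01 to 4.17% in controls, 2.72 to 3.29% at 4 h, 2.43 to 2.92% at 12 h and 4.69 to 5.28% at 24 h, and the gene Gm42418 took 16.97 to 27.83% over all libraries. The T cell markers Cd3d, Cd3e, Cd3g and Cd4 summed to 3571 to 4027 normalised counts in controls, 2181 to 2561 (0.8 µg) and 929 to 1073 (80 µg) at 4 h, 1514 to 1881 at 12 h and 3039 to 3691 at 24 h, so that they were lowest in the 80 µg group at 4 h. Markers of B cells (5 of 5 genes present) summed to 117 to 240.2 normalised counts in controls, 38.6 to 113 at 4 h, 4.86 to 126 at 12 h and 20.3 to 89.6 at 24 h, with at most 1 of the 5 at 0 in a group. Myeloid markers (7 of 7) ran from 24.3 to 51.5 in controls and from 8.63 to 128 in immunised groups, and erythroid markers (4 of 4) from 110 to 687 and from 19.7 to 779. The CD8 markers (2 of 2) summed to 104 to 159.9 in controls, 57.2 to 111 (0.8 µg) and 76.5 to 84.5 (80 µg) at 4 h, 139.9 to 181 and 45.7 to 75.8 at 12 h, and 119.8 to 153 and 81.1 to 113 at 24 h, so that the doses did not overlap at 12 h and 24 h. The 1 NK cell marker analysed, Klrb1c, reached at most 16.5.

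Levels are given as normalised counts, that is, counts divided by DESeq2's size factor of the library. Differences are shrunken log2 fold changes from DESeq2 with their standard error (SE), and a gene is said to change when its Benjamini-Hochberg adjusted p over all genes tested was under 0.05. All 6 comparisons with control use the same 3 control libraries. An adjusted p was obtained in each comparison for 48 of the 49 genes.

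The first comparison asks how proteasome genes responded to antigen. In the 0.8 µg group at 4 h, 37 of 48 proteasome genes were higher than in controls and 3 were lower, while 25.4% of all genes tested were higher and 29.2% lower. With 80 µg at 4 h, 39 were higher and 3 lower, against 26.3% and 30.7% of all genes. At 12 h the counts were 43 higher and 1 lower with 0.8 µg (25.2% and 27.9% of all genes) and 42 higher and 3 lower with 80 µg (25.3% and 27.4%). At 24 h they were 43 higher with 0.8 µg and 41 with 80 µg, with 0 lower in either, against 20.8% higher and 15.2% lower of all genes with 0.8 µg, and 22.1% and 16.9% with 80 µg. A rise beyond a log2 fold change of 1 was met by 27 genes (0.8 µg) and 31 genes (80 µg) at 4 h, 34 and 35 at 12 h, and 24 and 26 at 24 h, where 17.3% and 18.4%, 17.2% and 17.8%, and 11.5% and 12.3% of all genes met it. The rise was therefore broad across the group, and the genes that fell at 4 h were the same at both doses: Psmb8, Psmb9 and Psmb10.

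The constitutive subunits rose nearly as a whole. Of the 31 genes, 30 were higher at 4 h with either dose, all 31 at 12 h and 29 at 24 h, and 0 were lower. Their median log2 fold change was 1.35 and 1.45 at 4 h (0.8 µg and 80 µg), 1.83 and 1.93 at 12 h, and 1.12 and 1.05 at 24 h, beside medians over all genes tested of -0.13, -0.15, -0.11, -0.11, 0 and -0.0032. Averaged over the 31 genes in each library, the difference from control in log2(normalised count + 1) was 1.33 ± 0.034 and 1.43 ± 0.047 at 4 h, 1.70 ± 0.028 and 1.77 ± 0.030 at 12 h, and 1.08 ± 0.18 and 1.08 ± 0.0069 at 24 h (SD, n = 3 each). The exception at 4 h was Psmb1, a non-catalytic beta ring subunit, with log2 fold changes of 0.12 ± 0.12 (SE) and 0.24 ± 0.12. Those at 24 h were Psma3 of the alpha ring (-0.34 and -0.05) and Psmd4, a ubiquitin receptor of the cap (0.13 and 0.22). The highest mean was at 12 h for 27 of the 31 genes with 0.8 µg and 26 with 80 µg. The share of all genes with their highest mean at 12 h was not counted.

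Within the core the size of the rise differed from gene to gene. Psma7, an alpha ring subunit, rose most at 4 h. Its normalised counts were 565, 564 and 538 in controls, 2943, 2481 and 2509 with 0.8 µg at 4 h and 2825, 2740 and 2655 with 80 µg. All 6 libraries stood above 4 times the highest control, and the log2 fold changes were 2.24 ± 0.10 (adjusted p = 4.023e-106) and 2.29 ± 0.10 (adjusted p = 1.74e-111). Psma3, of the same ring, gave 0.50 and 0.61 at 4 h, the least of its 7 genes. The median over the alpha ring was 1.78 and 1.90 at 4 h and 2.01 and 2.16 at 12 h. In the non-catalytic beta subunits (Psmb1 to Psmb4) it was 0.86 and 1.01, then 1.26 and 1.33, with Psmb2 at 1.53 and 1.73 at 4 h.

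The cap moved with the core. All 6 ATPases, which unfold the substrate, and all 11 non-ATPase subunits were higher than control at 4 h and at 12 h with both doses. Psmc5, an ATPase, had the highest rise of its ring at 4 h (1.98 ± 0.18 with 0.8 µg), and Psmc6 the lowest with 0.8 µg (0.83). Psmd7, a scaffold partner of the deubiquitinase Psmd14, had the highest of all 31 constitutive genes with 80 µg at 12 h. Psmd7 had 315, 369 and 246 normalised counts in controls, 1218, 1260 and 1459 with 0.8 µg at 12 h and 1615, 1858 and 1550 with 80 µg at 12 h. The dose groups at 12 h did not overlap, and both were far above control (2.06 ± 0.14 and 2.41 ± 0.14), but the difference between doses did not pass the test (adjusted p = 0.08101). Psmd8, a lid subunit, showed the smallest rise of the non-ATPases with 0.8 µg at 4 h (0.76).

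**Figure D1:**
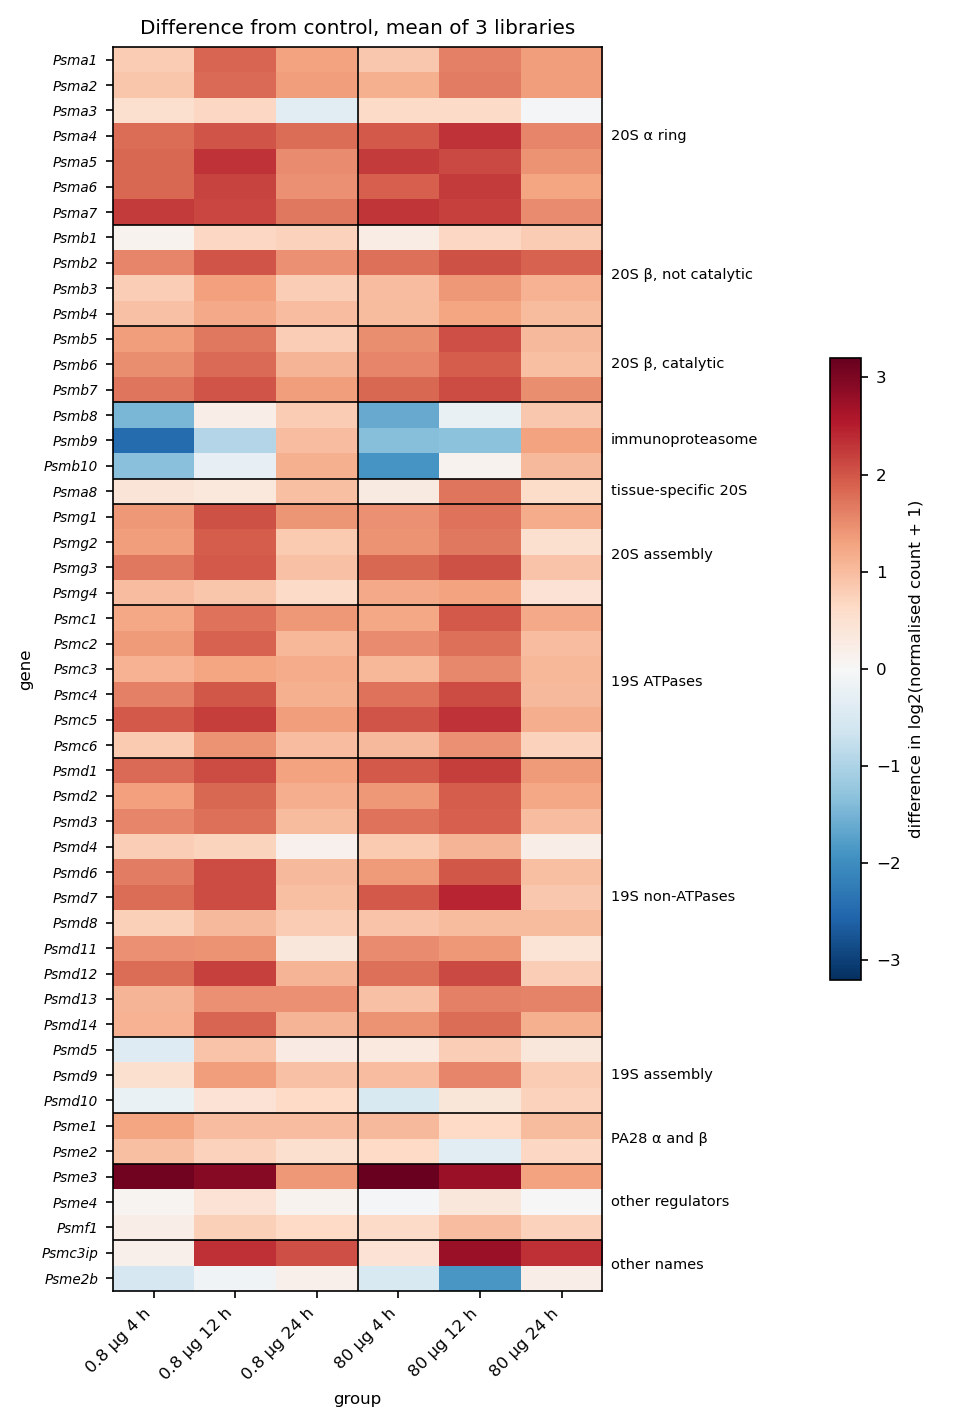
Each row is a proteasome gene, grouped by role, and each column an immunised group; colour is the difference from the control mean in log2(normalised count + 1), averaged over 3 libraries. Constitutive 20S and 19S rows are red nearly throughout, while Psmb8, Psmb9 and Psmb10 are blue at 4 h and red at 24 h.

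The constitutive catalytic subunits rose from the first time point on. Psmb5, which carries the chymotrypsin-like site, had 30.9, 36.5 and 25.7 normalised counts in controls, 84.8, 88.3 and 65.8 with 0.8 µg at 4 h, 106, 111 and 86.9 at 12 h, and 55.5, 66.2 and 42.3 at 24 h. With 80 µg the Psmb5 values were 101, 85.2 and 78.0, then 142, 136 and 122, then 53.7, 77.3 and 62.9. No immunised library fell into the control range, and 12 h was the highest time at both doses (1.66 ± 0.25 and 2.05 ± 0.25 against control, adjusted p = 1.942e-10 and 9.836e-16). The call of Psmb5 with 0.8 µg at 24 h (0.79 ± 0.26, adjusted p = 0.00944) was lost without control replicate 3 (adjusted p = 0.0506) or without 0.8 µg 24 h replicate 2 (adjusted p = 0.0864). Psmb6, with the caspase-like site, had 171, 152 and 170 in controls, 478, 456 and 460 with 0.8 µg at 4 h, 586, 525 and 618 at 12 h, and 322, 449 and 300 at 24 h. With 80 µg Psmb6 stood at 508, 486 and 478, then 542, 751 and 619, then 287, 370 and 317. Again all 18 immunised libraries exceeded the controls, with log2 fold changes between 0.98 and 1.95. Psmb7, with the trypsin-like site, had 82.5, 77.1 and 84.2 in controls, 259, 267 and 276 with 0.8 µg at 4 h, 327, 315 and 357 at 12 h, and 204, 272 and 161 at 24 h. With 80 µg Psmb7 stood at 265, 339 and 281, then 379, 321 and 342, then 220, 251 and 218. Its rise at 12 h was 2.02 ± 0.17 (adjusted p = 6.17e-30) and 2.08 ± 0.17 (adjusted p = 5.298e-32), and the 24 h libraries lay between control and 12 h.

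The immunoproteasome catalytic genes took the opposite course at 4 h and rose later. Psmb8 (LMP7), the counterpart of Psmb5, had 641, 663 and 735 normalised counts in controls, 219, 261 and 256 with 0.8 µg at 4 h, 808, 828 and 728 at 12 h, and 1206, 1288 and 1097 at 24 h. With 80 µg Psmb8 stood at 242, 201 and 225, then 576, 575 and 579, then 1109, 1343 and 1278. The 4 h libraries lay below and the 24 h libraries above every control. The log2 fold changes were -1.47 ± 0.11 (adjusted p = 7.324e-38) and -1.60 ± 0.11 (adjusted p = 1.381e-45) at 4 h, and 0.82 ± 0.10 (adjusted p = 6.312e-15) and 0.87 ± 0.10 (adjusted p = 3.285e-17) at 24 h. At 12 h the 0.8 µg libraries overlapped controls (0.22 ± 0.10, adjusted p = 0.05842) and the 80 µg libraries lay below them (-0.23 ± 0.10, adjusted p = 0.04352). That last call was lost with edgeR (adjusted p = 0.283) and in 12 of the 21 fits that each left out a library.

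Psmb9 (LMP2), the counterpart of Psmb6, had 245, 204 and 360 normalised counts in controls, 50.5, 56.6 and 35.6 with 0.8 µg at 4 h, 133, 159 and 121 at 12 h, and 587, 555 and 425 at 24 h. With 80 µg Psmb9 stood at 134, 89.1 and 88.3, then 151, 71.2 and 108, then 605, 670 and 648. All libraries at 4 h and 12 h were below the lowest control and all at 24 h above the highest. The group mean with 0.8 µg at 4 h was 0.176 of the control mean, the largest fall of any proteasome gene at 4 h (-2.46 ± 0.25, adjusted p = 1.068e-21), and with 80 µg the fall was 1.36 ± 0.23 on the log2 scale (adjusted p = 1.927e-08). At 12 h Psmb9 was still lower (-0.94 ± 0.23 and -1.28 ± 0.23), and at 24 h it was higher (0.95 ± 0.22 and 1.24 ± 0.22).

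Psmb10 (MECL-1), the counterpart of Psmb7, had 183, 144 and 228 normalised counts in controls, 79.7, 72.5 and 61.5 with 0.8 µg at 4 h, 189, 120 and 153 at 12 h, and 379, 515 and 333 at 24 h. With 80 µg Psmb10 stood at 39.4, 71.7 and 41.2, then 202, 198 and 193, then 405, 398 and 325. The 4 h libraries lay below controls, the 12 h libraries overlapped them and the 24 h libraries lay above. The log2 fold changes at 4 h were -1.35 ± 0.23 (adjusted p = 1.294e-08) and -1.83 ± 0.23 (adjusted p = 2.181e-14), and at 24 h 1.14 ± 0.21 (adjusted p = 3.995e-07) and 1.02 ± 0.21 (adjusted p = 6.427e-06). Summed over Psmb8, Psmb9 and Psmb10, the normalised counts were 1011 to 1323 in controls, 349 to 416 at 4 h, 844 to 1130 at 12 h and 1856 to 2412 at 24 h. B cell markers were below controls at 4 h and at 24 h, and T cell markers were below controls at 4 h. The share of mt-Rnr2 was below controls at 4 h and above them at 24 h. The part of other cells, of T cell content and of RNA composition in the 4 h fall and the 24 h rise was not tested.

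**Figure D2:**
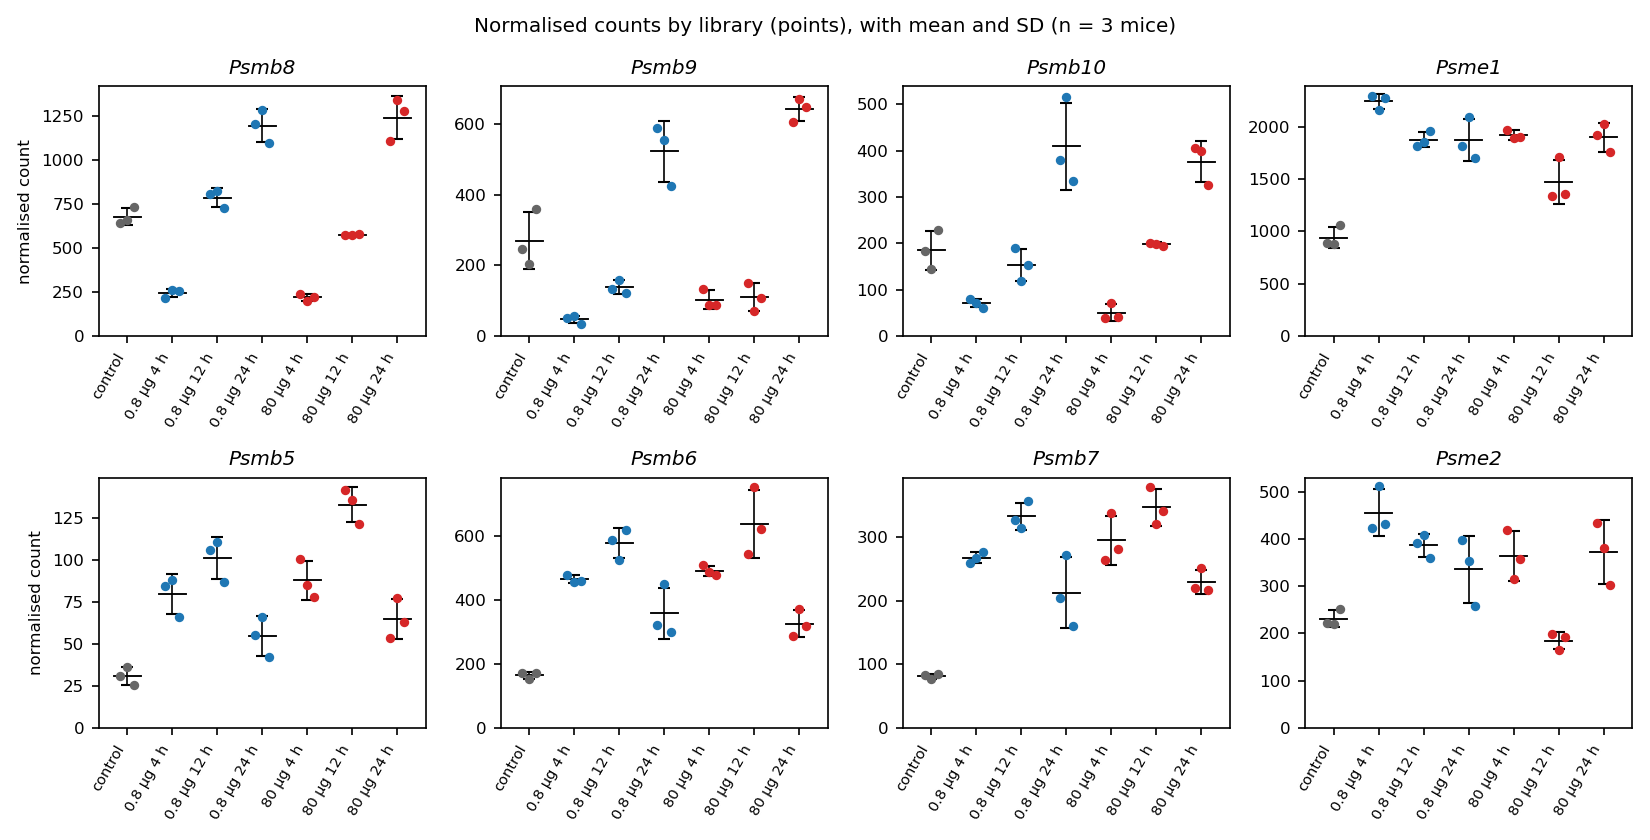
Normalised counts of the immunoproteasome genes, PA28α and PA28β and the 3 constitutive counterparts in each of the 7 groups (x axis); points are libraries, horizontal lines means and bars SD (n = 3). Psmb8, Psmb9 and Psmb10 dip at 4 h and peak at 24 h, while Psmb5, Psmb6 and Psmb7 peak at 12 h.

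To set each immunoproteasome gene against the subunit it replaces, the log2 ratio of their normalised counts (each + 1) was taken in each library. Since capture of a 3′ end differs between genes, only shifts of a ratio between groups are read. Psmb8 to Psmb5 was 4.33, 4.15 and 4.79 in controls, 1.36, 1.55 and 1.94 with 0.8 µg at 4 h and 1.26, 1.23 and 1.51 with 80 µg at 4 h. Psmb9 to Psmb6 was 0.52, 0.42 and 1.08 in controls, -3.22, -2.99 and -3.65 with 0.8 µg at 4 h and -1.91, -2.43 and -2.42 with 80 µg at 4 h. Psmb10 to Psmb7 was 1.14, 0.89 and 1.43 in controls, -1.69, -1.87 and -2.15 with 0.8 µg at 4 h and -2.72, -2.23 and -2.74 with 80 µg at 4 h. All 3 ratios thus lay far below control at 4 h, by 2.80 to 3.96 on the log2 scale. At 12 h the shift from control was -1.47 and -2.31 for Psmb8 to Psmb5 (0.8 µg and 80 µg), -2.73 and -3.25 for Psmb9 to Psmb6, and -2.29 and -1.96 for Psmb10 to Psmb7. By 24 h the ratios were near the starting point, with shifts of 0.027 and -0.16, -0.12 and 0.31, and -0.21 and -0.45.

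Between doses, the ratio of Psmb8 to Psmb5 was lower with 80 µg by 0.44 on average over the 3 times (exact permutation test within times, two-sided, p = 0.00275, adjusted p = 0.00825 over the 3 ratios). The difference was -0.28, -0.84 and -0.19 at 4 h, 12 h and 24 h, and at 12 h the dose groups did not overlap (2.02, 2.08 and 2.24 with 80 µg, 2.92, 2.89 and 3.05 with 0.8 µg). For Psmb9 to Psmb6 the sign changed with time (1.03, -0.52 and 0.43, mean 0.31, exact permutation p = 0.2255), as it did for Psmb10 to Psmb7 (-0.66, 0.33 and -0.24, mean -0.19, exact permutation p = 0.20025), and both had an adjusted p of 0.2255. Without 80 µg 12 h replicate 2 the difference for Psmb9 to Psmb6 was 0.449 (exact permutation test, adjusted p = 0.0465). Leaving out 80 µg 12 h replicate 1 instead gave 0.1918 (exact permutation test, adjusted p = 0.5).

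**Figure D3:**
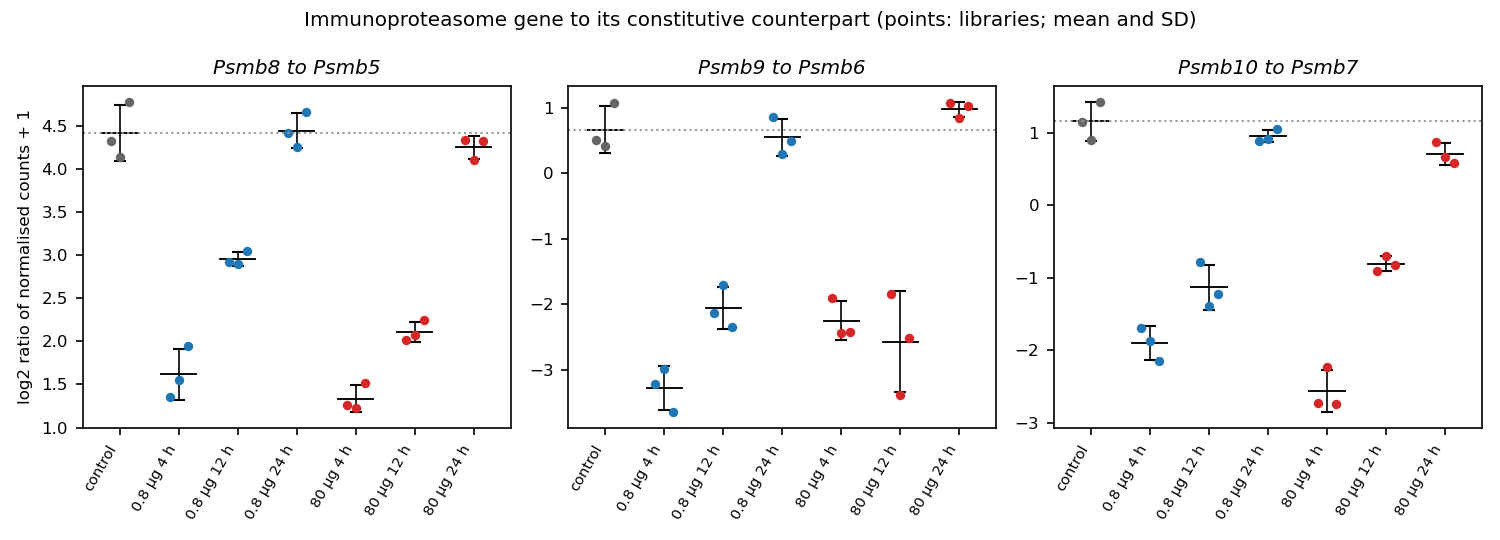
Log2 ratio of normalised counts (each + 1) of Psmb8 to Psmb5, Psmb9 to Psmb6 and Psmb10 to Psmb7 by group; points are libraries, lines and bars mean and SD (n = 3), and the dotted line is the control mean. All 3 ratios lie below control at 4 h and 12 h and return to within 0.45 of it at 24 h.

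PA28α and PA28β, interferon-inducible like the 3 catalytic genes, did not fall with them at 4 h. Psme1 (PA28α) had 887, 877 and 1059 normalised counts in controls, 2292, 2155 and 2271 with 0.8 µg at 4 h, 1816, 1853 and 1954 at 12 h, and 1819, 2090 and 1703 at 24 h. With 80 µg Psme1 stood at 1971, 1894 and 1897, then 1337, 1709 and 1359, then 1915, 2027 and 1754. Every immunised library was above every control, and the log2 fold changes ran from 0.64 ± 0.10 (80 µg, 12 h, adjusted p = 8.365e-10) to 1.25 ± 0.10 (0.8 µg, 4 h, adjusted p = 2.234e-34). Psme2 (PA28β) had 223, 220 and 251 in controls, 424, 512 and 431 with 0.8 µg at 4 h, 390, 408 and 359 at 12 h, and 397, 352 and 258 at 24 h. With 80 µg Psme2 stood at 419, 315 and 358, then 198, 164 and 191, then 434, 381 and 301. It was above control in all groups but 80 µg at 12 h, whose 3 libraries lay below every control (-0.32 ± 0.17, adjusted p = 0.09369). Elsewhere the log2 fold changes of Psme2 were 0.54 to 0.97, all past the test, although the call with 0.8 µg at 24 h was lost when 0.8 µg 24 h replicate 1 was left out (0.40, adjusted p = 0.0691) or with library totals as the scale (adjusted p = 0.0532).

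Among the other regulators, Psme3 changed most of all proteasome genes at 4 h. Psme3 encodes PA28γ, a nuclear activator of the core. Its normalised counts were 93.8, 89.2 and 104 in controls, 800, 798 and 858 with 0.8 µg at 4 h, 723, 703 and 769 at 12 h, and 258, 299 and 209 at 24 h. With 80 µg Psme3 stood at 819, 929 and 833, then 576, 723 and 680, then 225, 194 and 296. The groups did not overlap control at any time, and at 4 h the means were 8.55 and 8.98 times the control mean (3.08 ± 0.16, adjusted p = 2.734e-82, and 3.15 ± 0.16, adjusted p = 1.062e-86). Unlike most constitutive subunits, Psme3 had its highest mean at 4 h. Psme4, which encodes the activator PA200, was near control at 4 h (0.10 and -0.02) and modestly higher at 12 h (0.46 ± 0.14 and 0.37 ± 0.14). Psmf1, the inhibitor PI31, was higher at 12 h (0.76 and 0.98) and 24 h (0.63 and 0.75) with both doses, and at 4 h passed the test with 80 µg (0.63 ± 0.20, adjusted p = 0.003266) but not with 0.8 µg (0.22 ± 0.20, adjusted p = 0.3651).

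The assembly factors of the core were higher than control at 4 h, while those of the cap mostly did not pass the test. The 4 chaperones of 20S assembly, Psmg1 to Psmg4, were all higher than control at 4 h and 12 h with both doses. Psmg3 had 71.1, 67.9 and 52.8 normalised counts in controls, 207, 209 and 206 with 0.8 µg at 4 h, and 209, 229 and 257 with 80 µg. Its 6 libraries at 4 h were well above the controls (1.66 ± 0.19 and 1.83 ± 0.19), and Psmg1, Psmg2 and Psmg4 gave 0.98 to 1.42. At 24 h all but Psmg2 with 80 µg (0.51 ± 0.24, adjusted p = 0.07371) were still higher. The 3 chaperones of the 19S base, Psmd5, Psmd9 and Psmd10, gave -0.42, 0.41 and -0.23 with 0.8 µg at 4 h, and 0 of the 3 passed the test. With 80 µg at 4 h, Psmd9 was higher (0.85), and Psmd10 was at -0.47 ± 0.22 (adjusted p = 0.05958). At 12 h Psmd5 (0.89 and 0.79) and Psmd9 (1.18 and 1.40) were higher with both doses.

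The remaining members are listed by name rather than by role. Psmc3ip, a recombination factor of homologous chromosomes, had 4.12, 9.13 and 7.14 normalised counts in controls, 54.8, 47.0 and 47.6 with 80 µg at 12 h and 34.0, 40.5 and 36.4 with 80 µg at 24 h. It did not pass the test at 4 h (0.45 and 0.42) and was higher at 12 h (2.32 ± 0.44 and 2.72 ± 0.43) and 24 h (2.05 ± 0.44 and 2.30 ± 0.44). Psme2b, a near copy of Psme2 whose reads could be split with it, had means of 6.39 to 27.8 per group and differed from control only with 80 µg at 12 h among the 6 comparisons (-1.84 ± 0.53, adjusted p = 0.001291). Psma8, the testis-type alpha subunit, had at most 6.60 normalised counts in any library and 0 in the controls, and was the 1 gene without an adjusted p.

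Successive times were compared within each dose. From 4 h to 12 h with 0.8 µg, 27 of 48 genes rose and 1 fell (20.9% and 18.2% of all genes), and from 12 h to 24 h 3 rose and 31 fell (24.9% and 19.1%). With 80 µg the counts were 26 and 4 (23.6% and 19.3%), then 6 and 33 (24.9% and 19.8%). The 3 genes that rose from 12 h to 24 h with 0.8 µg were Psmb8 (0.60 ± 0.10), Psmb9 (1.89 ± 0.22) and Psmb10 (1.40 ± 0.21). With 80 µg they rose again (1.11, 2.52 and 0.92), together with Psme1 (0.37), Psme2 (1.00) and Psme2b (1.96). Of the 31 constitutive genes, 25 fell from 12 h to 24 h with 0.8 µg and 26 with 80 µg, 0 rose, and the medians were -0.67 and -0.74 beside 0.12 over all genes in both. Psmd7 (-1.12 and -1.57) and Psmd12, a cap subunit (-1.10 and -1.32), fell strongly, as did Psme3 (-1.51 and -1.46). From 4 h to 12 h Psmb8 rose with both doses (1.68 and 1.37), Psmb10 likewise (1.09 and 1.93), and Psmb9 with 0.8 µg (1.51 ± 0.25) but not with 80 µg (0.08 ± 0.24, adjusted p = 0.8163). Psme1 fell slightly (-0.26 and -0.38) and Psme2 fell with 80 µg (-0.97 ± 0.16). The fall of Psme1 with 0.8 µg was lost with library totals as the scale (-0.105, adjusted p = 0.3184), with edgeR (adjusted p = 0.0971) and without 0.8 µg 4 h replicate 1 or 3 or 0.8 µg 12 h replicate 1 or 2 (adjusted p = 0.0817, 0.0771, 0.0857 and 0.0672, DESeq2), and its rise from 12 h to 24 h with 80 µg was lost with library totals (0.1648, adjusted p = 0.0852) and with edgeR (adjusted p = 0.0525).

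The second question was whether the strength of the stimulus set these levels. The constitutive subunits gave no call between doses: 0 of 31 passed at 4 h, 12 h or 24 h, with effects between -0.29 and 0.40. Their mean difference from control per library was slightly higher with 80 µg at 4 h (1.40 to 1.48, and 1.30 to 1.36 with 0.8 µg). The same held at 12 h (1.74 to 1.80, and 1.67 to 1.72 with 0.8 µg), while the doses overlapped at 24 h. This small shift of the mean was not tested. Over all 48 genes, 2 passed at 4 h, 4 at 12 h and 0 at 24 h by DESeq2, against 12%, 6.27% and 5.93% of all genes tested. With a log2 fold change beyond 1 also required, 1, 2 and 0 genes were left, against 5.85%, 2.79% and 1.56%. At 24 h, 3 genes had an unadjusted p under 0.05, and edgeR called 0. The count there was 1 without 80 µg 12 h replicate 1 or without 0.8 µg 24 h replicate 3, and 3 with library totals as the scale (Psmd12, Psmc6 and Psma7, all lower with 80 µg). The counts of members were thus below the background share at 4 h and 24 h, and near it at 12 h (8.33% against 6.27%).

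The genes called between doses were as follows. At 4 h Psmb9 was higher with 80 µg (88.3 to 134 normalised counts) than with 0.8 µg (35.6 to 56.6), by 1.10 ± 0.26 (adjusted p = 0.000344). Psmd5, a chaperone of the 19S base, had 53.5, 61.9 and 44.2 with 0.8 µg and 83.3, 101 and 84.0 with 80 µg. Its dose groups did not overlap (0.74 ± 0.24, adjusted p = 0.02217), but the call was lost without 0.8 µg 4 h replicate 1 (adjusted p = 0.0743), 0.8 µg 4 h replicate 3 (0.158) or 80 µg 4 h replicate 2 (0.132). At 12 h the 4 genes called were all lower with 80 µg, and with only the 6 libraries compared in the fit, 2 of these calls were left (Psme2 and Psmb8) and those of Psme1 and Psme2b were lost. Psme2 fell by 1.06 ± 0.16 (adjusted p = 8.166e-09), Psmb8 by 0.45 ± 0.10 (adjusted p = 0.0003792) and Psme1 by 0.35 ± 0.10 (adjusted p = 0.009696). Psme2b, at 24.5, 15.0 and 24.7 with 0.8 µg and 4.57, 2.93 and 11.7 with 80 µg, fell by 1.61 ± 0.53 (adjusted p = 0.03851), and its reads may belong in part to Psme2. The dose groups did not overlap for any of these 4. The CD8 markers were also lower with 80 µg at 12 h (45.7 to 75.8 against 139.9 to 181 normalised counts), and their part in these differences was not tested. The call of Psme1 was lost without 0.8 µg 12 h replicate 3, 80 µg 12 h replicate 1 or 80 µg 12 h replicate 3 (adjusted p = 0.0535, 0.0988 and 0.0884), and that of Psme2b without 0.8 µg 12 h replicate 1 or 3 or 80 µg 12 h replicate 1 or 2 (0.151, 0.105, 0.143 and 0.264). Psmb10 was not called at any time (-0.48, 0.36 and -0.12).

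A likelihood ratio test on the 18 immunised libraries asked whether the dose effect differed between times. It passed for Psme2 (adjusted p = 4.86e-05), Psmb9 (adjusted p = 0.001461) and Psmb8 (adjusted p = 0.02262), 3 of 48 genes against 10.3% of all genes tested. The dose effects at 4 h, 12 h and 24 h were -0.32, -1.06 and 0.14 for Psme2, 1.10, -0.33 and 0.29 for Psmb9, and -0.14, -0.45 and 0.06 for Psmb8. Psme2 and Psmb9 passed in each of the 18 fits that left out a library and with edgeR, whereas Psmb8 was lost in 8 of them (highest adjusted p = 0.1031, without 0.8 µg 12 h replicate 2) and with edgeR (adjusted p = 0.1128). Without 0.8 µg 24 h replicate 3 the count was 6, with Psmb8 not among them. Among constitutive genes the smallest adjusted p was that of Psma4 (0.1148), and Psme1 had 0.143.

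**Figure D4:**
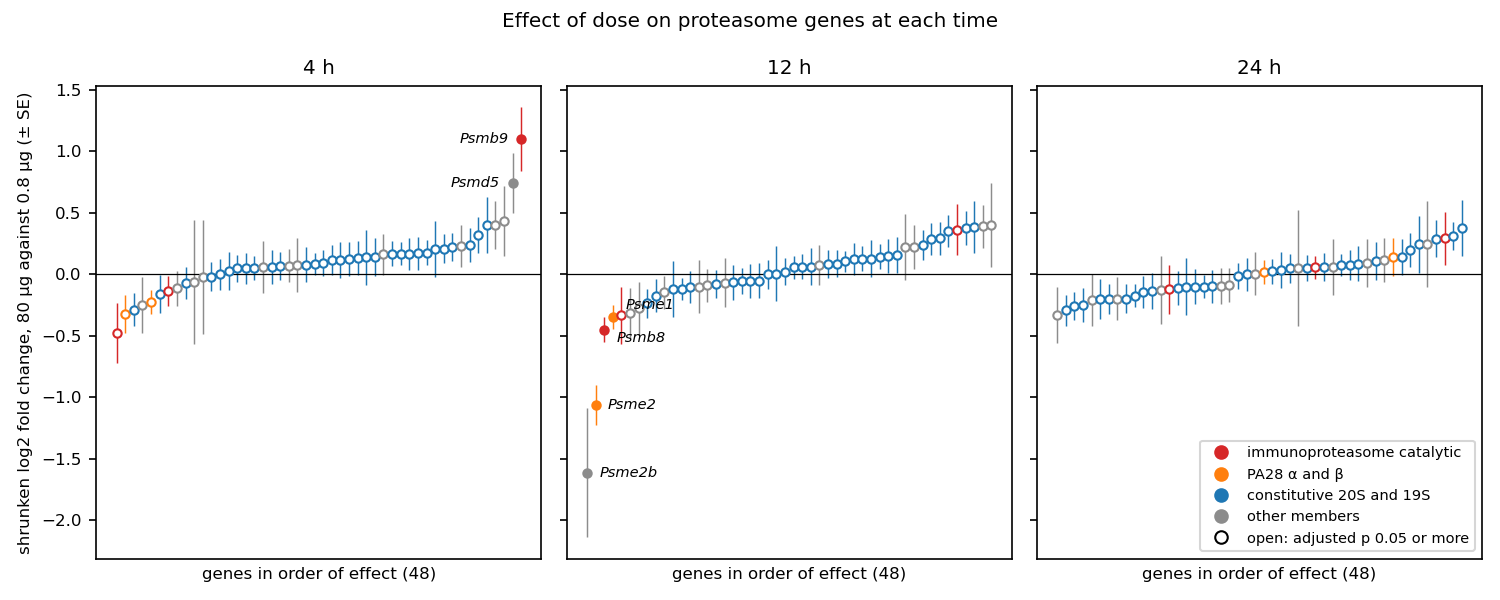
Shrunken log2 fold change of 80 µg against 0.8 µg (y axis, ± SE) for the 48 tested genes in order of effect (x axis) at 4 h, 12 h and 24 h; filled symbols passed an adjusted p of 0.05 and are named. Psmb9 and Psmd5 are filled at 4 h (higher with 80 µg) and Psme2b, Psme2, Psmb8 and Psme1 at 12 h (lower with 80 µg). Psme1 lies close to open symbols, and no gene is filled at 24 h.

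Genes that work with the proteasome but lie outside the name rule gave a frame for these changes. Of 15 partners of the 26S particle (shuttles, bound deubiquitinases, assembly and nuclear import factors), 11 were higher and 1 lower with 0.8 µg at 4 h, 11 and 0 with 80 µg, 12 and 1 then 10 and 1 at 12 h, and 6 and 1 then 8 and 3 at 24 h. Pomp, which matures the core, had 279, 283 and 286 normalised counts in controls and 1200, 1244 and 1082 with 80 µg at 12 h, with no overlap (2.05 ± 0.12). The shuttle factor Ubqln4 (1.94 and 1.99) and the proteasome-bound thioredoxin Txnl1 (1.83 and 1.96) rose most at 4 h, while Ubqln2 fell with 0.8 µg (-0.62). The median of the list at 4 h was 0.98 and 1.02, and 0 of 15 passed between doses at any time. Over all genes tested, the shares against control were 25.4% higher and 29.2% lower with 0.8 µg at 4 h, 26.3% and 30.7% with 80 µg, 25.2% and 27.9% then 25.3% and 27.4% at 12 h, and 20.8% and 15.2% then 22.1% and 16.9% at 24 h, with 12%, 6.27% and 5.93% called between doses.

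Nrf1 (Nfe2l1) is a transcription factor that raises proteasome genes through ARE sites after it is deglycosylated by Ngly1 and cut by Ddi2. Of the 11 genes on that list, which also holds the dimer partners Maff, Mafg and Mafk, 7 were higher and 3 lower at 4 h with either dose, 6 and 2 then 6 and 3 at 12 h, and 1 and 4 then 2 and 2 at 24 h. Set against the shares of all genes just given, the counts of lower genes at 4 h and 12 h, and of genes called with 80 µg at 24 h, were near or below the background. Nfe2l1 had 110, 93.3 and 141 normalised counts in controls, 291, 295 and 296 with 0.8 µg at 4 h and 265, 320 and 336 with 80 µg, all above control (1.35 ± 0.20 and 1.42 ± 0.20). Maff rose by 4.03 ± 0.57 and 5.25 ± 0.57 and was higher with 80 µg (1.23 ± 0.38), whereas Ngly1 was lower at 4 h (-2.74 ± 0.33 and -2.49 ± 0.31). Maff was very low in controls (mean 2.04 normalised counts, lowest library 0), so the size of its rise against control is uncertain. Between doses, 3 of the 11 genes were higher with 80 µg at 4 h, 2 at 12 h and 0 at 24 h, and 0 were lower. Of all genes tested, 12%, 6.27% and 5.93% were called in either direction.

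Interferon regulators and the antigen-processing neighbours of the immunoproteasome genes (9 genes) were mostly lower than control at 4 h and higher at 24 h than at 12 h. In this list 8 of 9 genes were lower than control at 4 h with 0.8 µg, and 8 of 9 with 80 µg. Irf1 was not among the lower genes with 80 µg (698, 674 and 664 normalised counts, with 641, 693 and 560 in controls). At 12 h 9 of 9 were lower with either dose, and at 24 h 4 were higher and 0 lower. From 12 h to 24 h 9 of 9 rose at both doses. Of all genes tested, 29.2% and 30.7% were lower at 4 h (0.8 µg and 80 µg), 27.9% and 27.4% were lower at 12 h, 20.8% and 22.1% were higher at 24 h, and 24.9% rose from 12 h to 24 h with either dose. Tap1, head to head with Psmb9, had 531, 541 and 611 in controls, 232, 223 and 195 with 0.8 µg at 4 h and 493, 496 and 400 with 80 µg. Its dose groups at 4 h did not overlap, and the dose effect of 1.09 ± 0.13 (adjusted p = 9.823e-15) stood beside that of 1.10 ± 0.26 for Psmb9. At 12 h Tap1 was higher with 80 µg (0.46 ± 0.13), whereas Psmb9 was at -0.33 ± 0.23. Stat2 (1.27 ± 0.28) and Irf1 (0.53 ± 0.13) were also higher with 80 µg at 4 h, and Tapbp lower (-0.43 ± 0.11). The part of these regulators in the changes of the proteasome genes was not tested.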

How the data were processed

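QuantSeq 3′ mRNA libraries of sorted CD4+ T cells were analysed in 7 groups of 3 mice. Per the study's methods, the authors trimmed reads with Bbduk, aligned them with STAR 2.5.2a to GRCm38/mm10 and counted reads per gene with HTSeq. They deposited these counts for 47643 genes, unnormalised, together with rlog values, which are on a log2 scale and were made by the authors with DESeq2. Which annotation release and strand setting were used for counting, and whether molecular identifiers were, was not given in the sources used here.

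The rlog table defined the proteasome genes, and the counts gave all tests. Genes with at least 10 counts over all samples (15300) were fitted with DESeq2 1.42.0 in R 4.3.3 (Wald test, all 21 libraries, 1 term for the 7 groups, normal-prior shrinkage of log2 fold changes, Benjamini-Hochberg adjustment over all genes tested, threshold 0.05). A likelihood ratio test on the 18 immunised libraries tested whether the dose effect differed between times. Ratios used log2(normalised count + 1) and an exact permutation test of the dose labels within times (8000 relabellings). Figures and summaries were made with Python 3.11.15. Scripts were tested on simulated data. Alternatives were edgeR 4.0.16, other scalings, no filter on low counts, a fold threshold, a replicate block and leaving out each library. Gene positions came from a GENCODE annotation of GRCm38, and promoters from RefSeq.

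Named in full were the immunoproteasome genes, PA28α and PA28β and the 3 constitutive counterparts. In each comparison, the 3 highest and 3 lowest of the called proteasome genes whose mean normalised count reached 20 could be named, as well as the extremes of each class at 4 h, assembly factors, other regulators, genes matched by name alone, genes without a test and the extremes of the related lists. Psmb2, Psmb1, Psmd4 and other exceptions to a count were named after their values were seen. The proteasome genes and the lists were chosen with earlier results of these data known. The values of 1 gene of the interferon list are not reported here.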

Additional observations from a re-analysis of the deposited data

Results flagged for a closer look

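The dose effect of 3 proteasome genes differed between times by the likelihood ratio test of DESeq2, that is 3 of 48 against 10.3% of all genes tested, a share no higher than the background. The range of the dose effect over 4 h, 12 h and 24 h, in shrunken log2 fold change, was 1.4336 for Psmb9, 1.2004 for Psme2 and 0.5073 for Psmb8. Psmb9 was higher with 80 µg at 4 h, while Psme2 and Psmb8 were lower with 80 µg at 12 h. With edgeR the test passed for 2 of the 3, Psme2 and Psmb9, and the call of Psmb8 was also lost in 8 of 18 fits that each left out a library.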

How the results depend on the processing

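TMM scaling, no filter on low counts and edgeR left all 14 counts of changed proteasome genes within 1.5 times their value. Of 103 called results of named genes, none was reversed under the alternatives tried, and 10 were lost in at least 1 of 21 fits that each left out a library. When a log2 fold change above 1 was also required, the counts against control at 24 h were 24 (0.8 µg) and 26 (80 µg). Of all genes, 11.5% and 12.3% met that rule as higher. Between doses the counts were 1 at 4 h and 2 at 12 h, against 5.85% and 2.79% of all genes. For the steps to 12 h and to 24 h they were 6 and 10 with 0.8 µg, and 4 and 13 with 80 µg. The share of all genes meeting the rule was not counted for the steps, so these step counts have no background beside them. With only the 6 libraries compared, 2 genes passed between doses at 12 h (4 with all libraries). Library totals as the scale moved the median of all genes furthest for 80 µg at 24 h against control (-0.21, and 0.029 with DESeq2's size factors). Between doses at 24 h that median was -0.080 (0.023 with DESeq2's size factors), and 3 genes passed (0 with DESeq2's size factors); the cause was not tested. Correlations gave no clear sign of pairing by replicate number, which does not exclude it. Of 63 same-numbered pairs, 12 had r over 0.1, and 9 of 21 libraries correlated best with their own number. The median r was -0.0138 for same-numbered pairs and -0.00357 for other pairs. With the replicate block the counts against control were 40, 44 and 43 with 0.8 µg and 42, 44 and 41 with 80 µg, those between doses 2, 4 and 0, those of the time steps 28, 34, 30 and 39, and 3 for the interaction, and the ratios differed between doses by -0.4394 (Psmb8 to Psmb5), 0.3148 (Psmb9 to Psmb6) and -0.1924 (Psmb10 to Psmb7). Under the block 1 named call was lost, Psmb8 with 80 µg at 12 h (adjusted p = 0.0504, DESeq2).

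Without 1 library at a time, the counts against control were 40 to 41, 44 to 45 and 40 to 44 at 4 h, 12 h and 24 h with 0.8 µg, and 41 to 44, 43 to 45 and 40 to 41 with 80 µg. Those between doses were 1 to 2, 3 to 5 and 0 to 1 (1 without 80 µg 12 h replicate 1 or 0.8 µg 24 h replicate 3), and those of the time steps 22 to 30 and 30 to 35 with 0.8 µg and 23 to 31 and 34 to 40 with 80 µg. The interaction passed for 2 to 6 genes, with 6 when 0.8 µg 24 h replicate 3 was left out. The mean dose difference was -0.4825 to -0.3854 for Psmb8 to Psmb5, -0.2486 to -0.1349 for Psmb10 to Psmb7 and 0.1918 to 0.449 for Psmb9 to Psmb6, which passed the exact permutation test without 80 µg 12 h replicate 2 (0.449, adjusted p = 0.0465). With 3 mice a group, small dose effects may have gone undetected, and genes with few counts, such as Psme2b, Psmc3ip and Psma8, were measured least precisely.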
